A study of Mus musculus with 12 samples.

Results

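Solute carriers are the membrane proteins that move amino acids, sugars, nucleosides, metal ions and many other small molecules across the plasma membrane and the membranes of organelles. The genes described here are the 190 genes on the array table whose platform symbol starts with Slc followed by a digit, out of 11015 genes with a single symbol, each read from its brightest probe set. A glucose carrier of the family is not analysed here. Of the 190 genes, 186 encode carriers or their subunits, and Slc9a3r1, Slc9a3r2, Slc4a1ap and Slc7a6os carry an Slc symbol but encode scaffold or other proteins. RNA came from cultured endothelial cells of the aorta of mice aged 4 weeks. The 4 groups were Ets1/2 null (Ets1-/-; Ets2fl/fl with a lentivirus carrying egfp and Cre, 2 arrays used), Ets1 null (Ets1-/-; Ets2fl/fl with a lentivirus carrying egfp alone, 3 arrays), Ets2 null (Ets1+/+; Ets2fl/fl with egfp-Cre virus, 3 arrays) and wild type (Ets1+/+; Ets2+/+ with egfp virus, 3 arrays). All cells had thus received a lentivirus with egfp, Cre went together with Ets2 deletion, and Ets2 was floxed in every group except wild type. A further column labelled Ets1/2 null was left out, because in 20521 of 20523 probe sets it was the average of the 2 arrays of that group (within 1e-06).

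Ets1 and Ets2 are transcription factors that bind a GGAA core and act in endothelial survival and angiogenesis. Endothelial cells line vessels and pass nutrients to the tissue beneath, and they take up amino acids, glucose, nucleosides and metals for themselves through solute carriers. The family falls into groups by substrate: Slc1, Slc7 and Slc38 carry amino acids, Slc29 nucleosides, Slc35 nucleotide sugars into the Golgi and endoplasmic reticulum, Slc25 metabolites across the inner mitochondrial membrane, Slc30 and Slc39 zinc, and Slc4, Slc9 and Slc12 inorganic ions. The substrate classes below were set by the Slc family number alone, so single members of a class may carry another substrate.

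The values are log2 of RMA expression values, centred here so that every array had the same median over all genes. As deposited, the median over the 11015 genes was 8.73 and 8.69 in the arrays labelled Ets1/2 null and between 9.37 and 9.498 in the other 9 arrays. The median difference over all genes between Ets1/2 null and wild type was 0.11 after centring, -0.61 as deposited and 0.03 after quantile normalisation. After centring it was 0.17 against Ets1 null, 0.14 against Ets2 null and 0.18 in the interaction described below. Directions on centred values are therefore relative to the array median, and the median difference over all genes lay somewhat above it in these comparisons. Ets1, the targeted gene, was at 10.6 and 10.9 in the arrays labelled Ets1/2 null, at 8.1, 8.6 and 9 in Ets1 null, and at 10.2, 9.7 and 9.9 in wild type. It was higher in the arrays labelled Ets1/2 null than in Ets1 null by 2.17 ± 0.25 (limma SE, adjusted p = 0.000713), which goes against the label; where the probe set lies relative to the deleted part was not analysed here. Ets2 was at 11.6 and 10.3 in the arrays labelled Ets1/2 null, at 9.5, 9.3 and 10 in Ets2 null, and at 9.7, 9.9 and 10.5 in wild type. The Ets2 null and wild-type values overlapped, so the Ets2 signal did not show the loss that the Ets2 null label states. Against the label, the centred Ets2 signal of the arrays labelled Ets1/2 null read 0.9 ± 0.4 above wild type, a difference that was not called (limma adjusted p = 0.121). It was higher than in Ets2 null by 1.33 ± 0.4 (limma adjusted p = 0.0325), and by 0.62 on the deposited values, where it was not called (limma adjusted p = 0.255). The mean of the 6 endothelial markers on the table, of 14 listed, lay between 7.57 and 8.56 in the arrays labelled Ets1/2 null, between 7.18 and 7.86 in Ets1 null arrays, between 9.21 and 9.77 in those of Ets2 null and between 8.67 and 9.44 in wild type; several defining markers such as Pecam1 and Cdh5 were not analysed here. The 8 fibroblast markers averaged 10.03 to 10.6 in the arrays labelled Ets1/2 null, 9.1 to 9.73 in Ets1 null arrays, 9.4 to 10.73 in those of Ets2 null and 9.8 to 10.34 in wild type. The 5 smooth muscle markers averaged 8.39 to 9.8 in the arrays labelled Ets1/2 null, 7.7 to 9.82 in Ets1 null arrays, 8.51 to 9.4 in those of Ets2 null and 8.06 to 9.22 in wild type, and the 4 epithelial and mesothelial markers 9.41 to 9.51 in the arrays labelled Ets1/2 null, 9.66 to 10.1 in Ets1 null arrays, 7.87 to 8.24 in those of Ets2 null and 7.22 to 9.59 in wild type. The part of these markers in the results below was not tested.

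As a family, the solute carriers sat below the typical gene on these arrays: their median level was 8.83 against 9.29 for all genes, and 75 of the 190 lay above the median of all genes. The brightest were carriers of the inner mitochondrial membrane. Slc25a3, the phosphate carrier that supplies ATP synthase, averaged 13.65 over all arrays, and Slc25a4 and Slc25a5, which exchange ADP for ATP, averaged 13.47 and 13.19. Slc25a4 and Slc25a5 are close paralogs, and the brightest Slc25a5 probe set has a suffix used for probes that can bind other transcripts, so these 2 values may share signal. Outside the mitochondria, the highest mean signals were those of Slc5a3, the sodium-dependent myo-inositol carrier (12.74), Slc38a2, the stress-responsive neutral amino acid carrier (12.35), and Slc30a4, a zinc exporter (12.06). Signals of different probe sets depend on their probes, so this order describes brightness and not amounts of RNA.

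**Figure D1:**
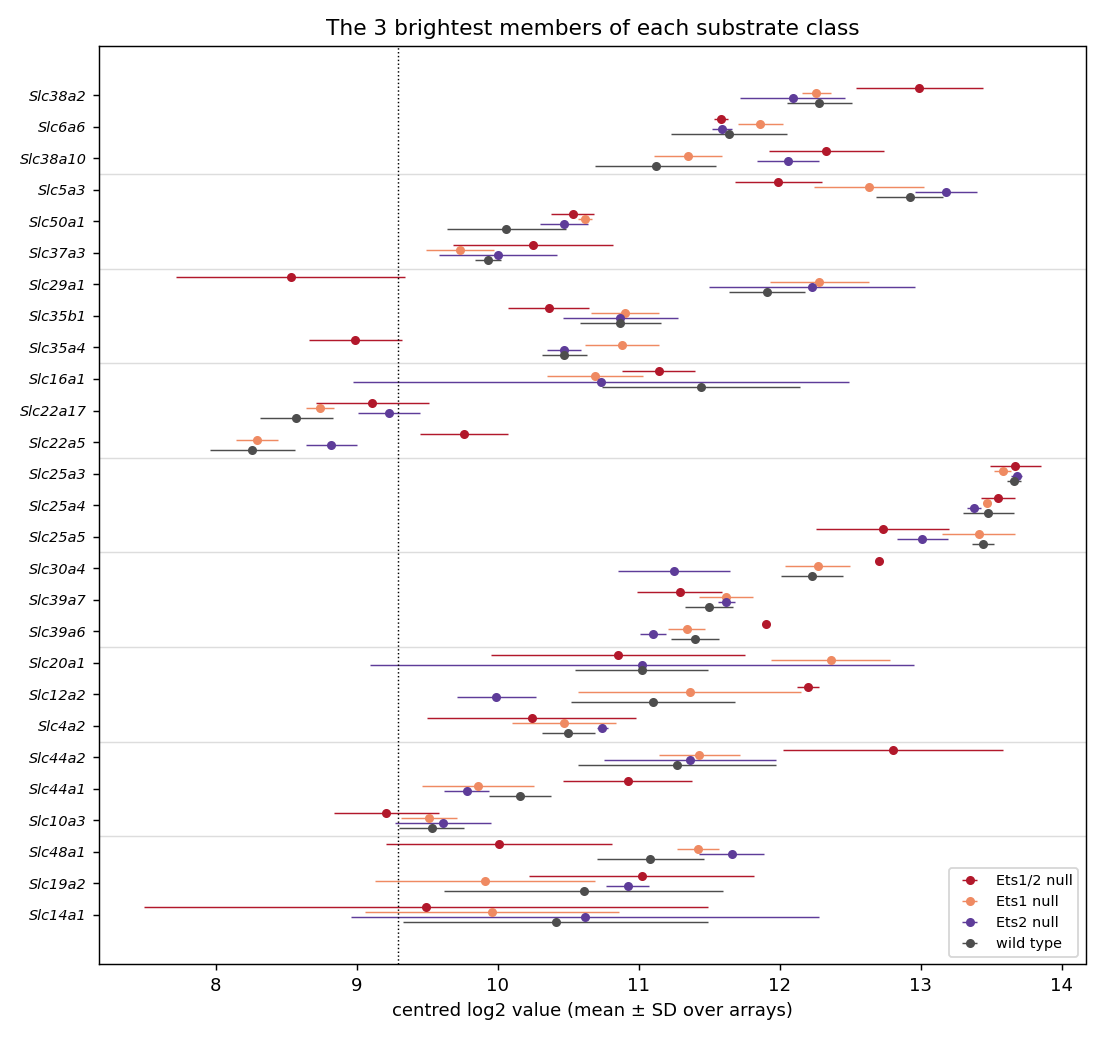
Centred log2 value (x axis, mean and SD over 2 arrays labelled Ets1/2 null and 3 arrays of each other group) of the 3 brightest members of each of 9 substrate classes, separated by grey lines. The dotted line is the median of all genes, 9.29. Slc29a1 is the member whose Ets1/2 null mean stands farthest from its other 3 groups, and the group means of Slc25a3 and Slc25a4 lie close together after centring.

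Among the carriers with well known roles in endothelial cells, 22 genes are described here. Slc6a6, the taurine carrier, was at 11.62 and 11.55 in the arrays labelled Ets1/2 null, inside the wild-type values of 12.06, 11.24 and 11.62. Slc16a1, which carries lactate and pyruvate, was at 11.32 and 10.96 in the arrays labelled Ets1/2 null and at 11.93, 10.64 and 11.76 in wild type, again overlapping. Slc3a2, the heavy chain of the Slc7 exchangers, was at 12.55 and 11.68 against 11.79, 11.72 and 11.18 in wild type. Its light chain Slc7a5, which carries large neutral amino acids, was at 10.15 and 8.6 in the arrays labelled Ets1/2 null, with a wide spread, against 10.96, 10.75 and 9.82 in wild type. Slc7a1, the arginine carrier, was at 11.97 and 10.47, and wild-type values of 10.87, 10.94 and 10.32 lay within or just below that range. Slc2a3, a high-affinity glucose carrier, was among the dimmest genes, at the 0.5 percentile of all genes, and its difference of 1.36 ± 0.54 between Ets1/2 null and wild type had a limma adjusted p of 0.0925. None of these 6 genes passed the test in that comparison.

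The question behind the design is how losing both factors differs from losing either. Between Ets1/2 null and wild type, 30 solute carriers rose and 32 fell relative to the array median (limma across all 11015 genes, Benjamini-Hochberg adjusted p under 0.05). Over all genes 16.4% rose and 12% fell, against 15.8% and 16.8% of the solute carriers, whose median difference was 0.07 beside 0.11 for all genes. On the deposited values, where the arrays labelled Ets1/2 null have lower medians, 3 solute carriers rose and 90 fell, with 2.32% and 43.6% over all genes. All 32 falls were called on both scales, as were all 1317 falls over all genes. The lower deposited medians enlarge every fall, so this is no separate check of the falls. Of the 30 rises only Slc35a1, Slc35a2 and Slc22a5 were called on both scales, and 6 had the opposite sign on the deposited values. Over all genes 256 of 1801 rises were called on both. All 11 arrays gave 1 common estimate of the spread; the labels tie no replicate to an animal, so the p-values cover whatever spread these cultures had. Without wild-type replicate 1, wild-type replicate 2 or Ets1/2 null replicate 2, 41, 39 and 35 solute carriers were called in place of 62, and a fit of only the 5 arrays compared called 25. Over all genes these fits called 2373, 2311, 1926 and 1325 in place of 3118.

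**Figure D2:**
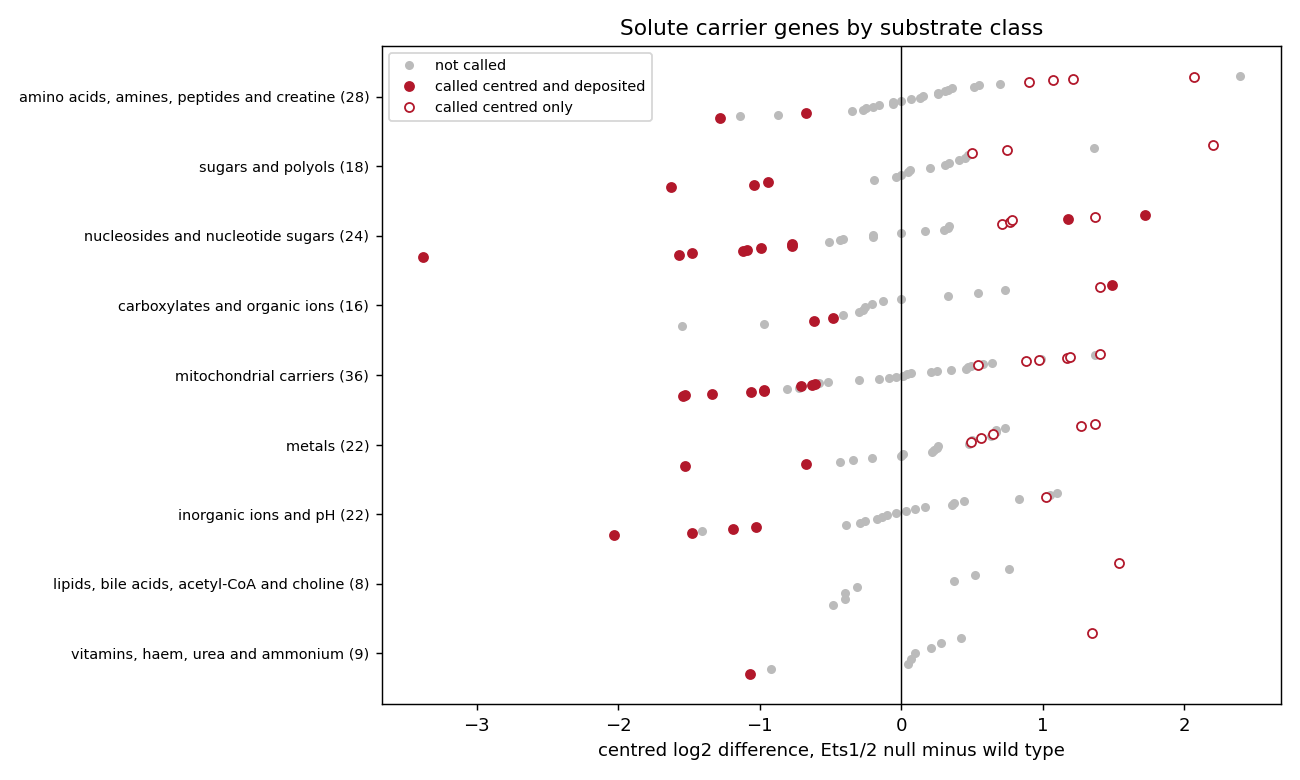
Centred log2 difference (x axis) between Ets1/2 null (2 arrays) and wild type (3 arrays) for each solute carrier, by substrate class (y axis, number of genes in brackets), the 7 genes that are unclassed or no carriers left out. Each point is a gene; filled red points were called on centred and deposited values in the same direction, open red points on centred values only, and grey points were not called. Every called fall is filled, all but 3 of the called rises are open, and Slc29a1 is the leftmost point at -3.38. The lower deposited medians of the arrays labelled Ets1/2 null enlarge every fall, so filled falls are no separate check.

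Of the 24 nucleoside and nucleotide sugar carriers 8 fell (33.3%) and 6 rose (25%), beside 12% and 16.4% of all genes, and on the deposited values 12 fell and 2 rose, beside 43.6% and 2.32%. Slc29a1, the equilibrative carrier ENT1 that takes up adenosine and other nucleosides, was at 7.96 and 9.1 in the arrays labelled Ets1/2 null, against 12.2, 11.88 and 11.65 in wild type. It was the largest change of the family, -3.38 ± 0.45 (limma SE, adjusted p = 0.00143), or 10.4-fold lower in Ets1/2 null. Slc29a1 has 1 probe set on the table, so no second probe set could check this change. Every single-null array stayed high: Ets1 null arrays read 12.58, 11.89 and 12.37, and those of Ets2 null 12.57, 12.72 and 11.38. Among the Golgi carriers, Slc35b4, which takes in UDP-xylose and UDP-N-acetylglucosamine, was at 8.13 and 8.19 in the arrays labelled Ets1/2 null and at 9.9, 9.79 and 9.5 in wild type. It fell by 1.57 ± 0.15 on the log2 scale (limma adjusted p = 0.000312). In the interaction described below, 1 of the 3 probe sets of Slc35b4 was called. There the mean of its probe sets read -0.27 (limma adjusted p = 0.384), against -1.31 for the brightest. Slc35a4, a carrier-like protein of the same family, was at 8.76 and 9.22 against 10.5, 10.61 and 10.3 in wild type, a fall of 1.48 (-1.48 ± 0.2, limma adjusted p = 0.00153). Slc35e1, an orphan member, was lower by 1.12 (-1.12 ± 0.23), and its second probe set read 0.6 ± 0.24 in the other direction without passing the test.

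In the same class Slc35a2, the Golgi carrier of UDP-galactose, was at 9.77 and 10.1 in the arrays labelled Ets1/2 null, against 7.89, 8.48 and 8.29 in wild type. It rose by 1.72 ± 0.3 (limma adjusted p = 0.00417), and the Ets2 null arrays, at 9.45, 9.46 and 9.35, also lay above all wild-type arrays. Its brightest probe set is again of the type that can bind other transcripts, and the second-brightest read -0.04. Slc35f5, an orphan member, was at 10.25 and 11.24 in the arrays labelled Ets1/2 null and at 9.59, 9.64 and 8.9 in wild type, a rise of 1.37 ± 0.43 (limma adjusted p = 0.0403). It was called in 4 of 11 leave-one-out fits.

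**Figure D3:**
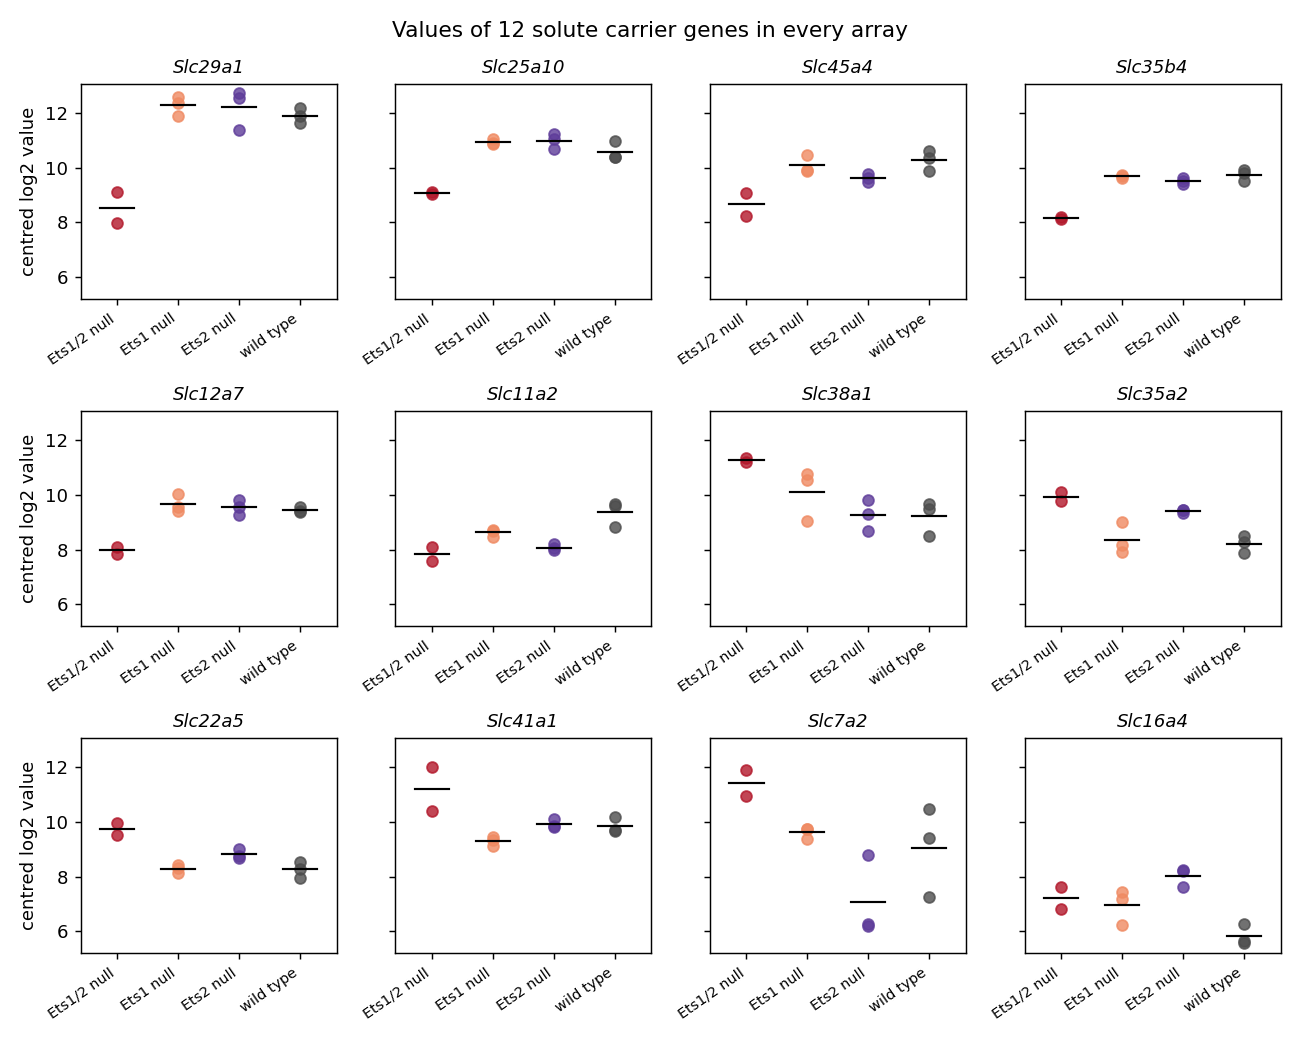
Centred log2 value (y axis, shared) of 12 solute carriers in every array, by group (x axis); points are arrays and black lines group means. The first 6 genes have both Ets1/2 null arrays below every wild-type array, the next 4 have both above, and Slc7a2 and Slc16a4 are shown for the Ets2 null group, where Slc7a2 has 2 arrays near 6.2 and 1 at 8.78.

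The promoters of these genes are shown because Ets1 and Ets2 are DNA-binding factors and the genes differ in direction. RefSeq promoters on GRCm38.p6, 250 bases before to 50 after a start, were listed for 147 of the 190 genes (198 starts). The ETS core with its preferred flanks, CCGGAAGT on either strand, stood in 9 of the 198 promoters (4.55%), against 3.89% of all 32851 promoters. It was in 3 of 40 promoters of genes that fell between Ets1/2 null and wild type (7.5%), where the overlapping windows of Slc35c2 count the same site 2 times, and in 2 of 31 of genes that rose (6.45%). The sequences of these genes follow, 5′ to 3′ on the gene's strand, with CCGGAAGT or its reverse complement ACTTCCGG in capitals. Slc35c2 (chr2:165287789-165288088, minus strand, first of 2 overlapping starts) and Slc35f6 (chr5:30647689-30647988, plus strand) are genes of the Slc35 family that fell. Slc30a7 (chr3:116007357-116007656, minus strand) and Slc30a9 (chr5:67306705-67307004, plus strand), both of the Slc30 zinc family, rose.
Slc35c2: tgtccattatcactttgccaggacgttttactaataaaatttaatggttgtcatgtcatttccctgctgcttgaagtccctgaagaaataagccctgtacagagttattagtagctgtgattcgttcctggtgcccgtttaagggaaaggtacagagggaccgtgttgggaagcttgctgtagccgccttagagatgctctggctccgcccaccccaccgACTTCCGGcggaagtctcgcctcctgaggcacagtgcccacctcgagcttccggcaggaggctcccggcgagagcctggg
Slc35f6: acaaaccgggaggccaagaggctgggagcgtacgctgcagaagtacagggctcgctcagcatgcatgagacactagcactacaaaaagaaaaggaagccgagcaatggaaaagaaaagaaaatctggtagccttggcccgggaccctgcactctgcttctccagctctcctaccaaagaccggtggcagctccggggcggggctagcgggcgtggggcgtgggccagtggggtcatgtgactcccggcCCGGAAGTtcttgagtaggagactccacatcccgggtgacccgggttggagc
Slc30a7: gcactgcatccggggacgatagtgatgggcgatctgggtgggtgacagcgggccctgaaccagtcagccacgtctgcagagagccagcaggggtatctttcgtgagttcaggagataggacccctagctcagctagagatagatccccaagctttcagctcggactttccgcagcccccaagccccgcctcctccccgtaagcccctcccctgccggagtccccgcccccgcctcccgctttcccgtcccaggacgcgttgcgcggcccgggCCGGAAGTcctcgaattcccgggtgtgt
Slc30a9: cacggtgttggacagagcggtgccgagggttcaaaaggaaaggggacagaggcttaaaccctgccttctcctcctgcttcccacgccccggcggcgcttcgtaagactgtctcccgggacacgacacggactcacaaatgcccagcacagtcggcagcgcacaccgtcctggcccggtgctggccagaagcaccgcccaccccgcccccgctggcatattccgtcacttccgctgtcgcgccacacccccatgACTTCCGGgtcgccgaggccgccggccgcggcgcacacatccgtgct
The match begins 30 bases before the start in Slc35c2, 2 bases before it in Slc35f6, and at base 23 and base 4 after it in Slc30a7 and Slc30a9. The named genes with the largest fall and the largest rise against Ets1 null, Slc29a1 (chr17:45599569-45599868, minus strand, first of 8 starts) and Slc41a1 (chr1:131827762-131828061, plus strand), are printed for comparison and hold neither CCGGAAGT nor the shorter GGAAGT in these windows.
Slc29a1: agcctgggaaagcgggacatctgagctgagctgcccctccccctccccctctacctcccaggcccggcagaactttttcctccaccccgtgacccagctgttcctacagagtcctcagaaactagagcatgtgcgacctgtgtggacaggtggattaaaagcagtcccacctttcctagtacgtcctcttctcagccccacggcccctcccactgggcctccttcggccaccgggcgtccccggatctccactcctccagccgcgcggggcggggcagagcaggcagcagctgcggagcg
Slc41a1: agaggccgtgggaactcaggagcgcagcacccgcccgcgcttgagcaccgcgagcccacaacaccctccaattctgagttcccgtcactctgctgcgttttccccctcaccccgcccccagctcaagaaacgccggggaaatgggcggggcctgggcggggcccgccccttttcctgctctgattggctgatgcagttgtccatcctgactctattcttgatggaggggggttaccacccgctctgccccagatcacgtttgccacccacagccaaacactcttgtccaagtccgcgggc
The shorter core GGAAGT, which lies within CCGGAAGT, was in 26.3% of the promoters of solute carriers and 23.8% of all promoters. The hypoxia cores ACGTG and GCGTG stood in 26.8% and 51% of the solute carrier promoters, against 19.6% and 32.4% of all. They stood in 32.3% and 41.9% of those of genes that rose, and in 25% and 47.5% of those of genes that fell. All promoters here include those of genes outside the ones analysed, and base composition was not matched. The amino acid response element TGATGNAAN was in 2.53%, against 3.95% of all. A match describes letters and shows no binding.

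Slc35c2, a Golgi protein linked to fucosylation of Notch, was at 7.46 and 7.69 in the arrays labelled Ets1/2 null, against 8.61, 8.74 and 8.35 in wild type (-0.99 ± 0.15, limma adjusted p = 0.0021). Slc35f6 was at 8.39 and 8 against 9.11, 9.28 and 9.48 in wild type (-1.09 ± 0.18, limma adjusted p = 0.00294). These 2 genes and Slc30a9 are named for their promoters and not by size of change. Slc30a9 was at 10.71 and 10.97 against 10.3, 10.24 and 10.3 in wild type, a rise of 0.56 ± 0.13 that read -0.16 on the deposited values.

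Mitochondrial carriers split both ways, with 9 of 36 lower (25%) and 6 higher (16.7%), beside 12% and 16.4% of all genes. On the deposited values 19 fell and none rose, beside 43.6% and 2.32%. Slc25a10, the dicarboxylate carrier that exchanges malate and succinate for phosphate, was at 9.1 and 9.02 in the arrays labelled Ets1/2 null, against 10.38, 10.4 and 10.98 in wild type. Its fall of 1.53 (-1.53 ± 0.22, limma adjusted p = 0.00178) was seen in both of its probe sets, the second reading -2.37 ± 0.16. Slc25a1, the citrate carrier that exports citrate for fatty acid synthesis, was at 8.69 and 9.23 against 10.41, 10.78 and 10.29 in wild type (-1.54 ± 0.39, limma adjusted p = 0.0178). Slc25a5 was lower by 0.71 (-0.71 ± 0.23, limma adjusted p = 0.0451), with 4 of its 8 probe sets called the same way. The phosphate carrier Slc25a3, by contrast, was at 13.79 and 13.55 in the arrays labelled Ets1/2 null and at 13.6, 13.68 and 13.69 in wild type, and Slc25a4 at 13.47 and 13.63 against 13.53, 13.64 and 13.29, neither of them called after centring; as deposited they read -0.71 and -0.65. Slc25a36, a carrier of pyrimidine nucleotides, was at 11.42 and 11.79 against 10.43, 10.5 and 10.32 in wild type, a rise of 1.19 ± 0.26 (limma adjusted p = 0.0101), while the second-brightest of its 3 probe sets read -0.24.

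Of the 28 amino acid, amine and peptide carriers, 4 rose (14.3%) and 2 fell (7.14%), beside 16.4% and 12% of all genes. None rose and 12 fell as deposited, beside 2.32% and 43.6%. Slc38a1, the system A glutamine carrier SNAT1, was at 11.35 and 11.21 in the arrays labelled Ets1/2 null, against 9.65, 9.49 and 8.49 in wild type. The rise of 2.07 ± 0.55 (limma adjusted p = 0.0225) was shared by both of its probe sets, and Ets1 null arrays read 9.04, 10.55 and 10.78. Slc38a10, a related carrier, was at 12.62 and 12.03 against 11.48, 11.23 and 10.64 in wild type (1.21 ± 0.28, limma adjusted p = 0.0133), but of its 5 probe sets 2 were called higher and 1 lower. Slc38a2 was at 13.3 and 12.67 against 12.02, 12.39 and 12.44, a difference of 0.7 ± 0.26 that was not called (limma adjusted p = 0.0706). In the other direction Slc1a5, the ASCT2 exchanger that brings glutamine into dividing cells, was at 8.95 and 8.47 in the arrays labelled Ets1/2 null, against 9.95, 9.46 and 10.55 in wild type. It fell by 1.28 (-1.28 ± 0.41, limma adjusted p = 0.0454) and was called in 3 of 11 leave-one-out fits. Its relative Slc1a4 (ASCT1) was not called on its brightest probe set (-0.35 ± 0.2), whereas the second read 1.87 ± 0.26 higher.

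Among the 22 metal carriers 5 rose (22.7%) and 2 fell (9.09%), beside 16.4% and 12% of all genes. The deposited values gave no rise and 9 falls, beside 2.32% and 43.6%. Slc11a2, the DMT1 carrier of ferrous iron, was at 7.59 and 8.11 in the arrays labelled Ets1/2 null, against 9.61, 9.68 and 8.84 in wild type. It fell by 1.53 (-1.53 ± 0.26, limma adjusted p = 0.00379), while Ets1 null arrays lay between, at 8.46, 8.69 and 8.73, and those of Ets2 null overlapped the low values at 8.04, 7.97 and 8.2. Slc30a7, which loads zinc into the Golgi, was at 10.14 and 10.34 against 9.11, 9.33 and 8.48 in wild type, a rise of 1.27 ± 0.26 (limma adjusted p = 0.00734). Slc41a1, which carries magnesium, was at 10.4 and 12.02 in the arrays labelled Ets1/2 null, against 9.67, 9.7 and 10.17 in wild type. Its rise was 1.37 ± 0.39 (limma adjusted p = 0.0304), and the 2 arrays labelled Ets1/2 null stood far apart. The zinc importers Slc39a14 and Slc39a7 and the zinc exporter Slc30a1 were not called, at 0.5 ± 0.36, -0.21 ± 0.18 and -0.34 ± 0.67.

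Inorganic ion carriers had 4 falls (18.2%) and 1 rise (4.55%) among 22, beside 12% and 16.4% of all genes. With the deposited values there were 11 falls and no rise, beside 43.6% and 2.32%. Slc12a7, the potassium chloride cotransporter KCC4, was at 8.11 and 7.83 in the arrays labelled Ets1/2 null, against 9.41, 9.37 and 9.55 in wild type, and both of its probe sets were called lower (-1.48 ± 0.22, limma adjusted p = 0.00226). Slc12a2, the sodium potassium chloride cotransporter NKCC1, was at 12.26 and 12.15 against 11.48, 11.39 and 10.43, above every wild-type array, but the difference of 1.1 ± 0.45 did not pass (limma adjusted p = 0.0973). The phosphate carrier Slc20a1 ranged as widely within groups as between them, with 10.22 and 11.49 in the arrays labelled Ets1/2 null and 11.94, 12.32 and 8.8 in those of Ets2 null, against 10.76, 11.56 and 10.73 in wild type. The chloride and bicarbonate exchanger Slc4a2 was not called either (-0.26 ± 0.3).

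Sugar and polyol carriers gave 3 rises (16.7%) and 3 falls (16.7%) among 18, beside 16.4% and 12% of all genes. Their deposited values gave no rise and 8 falls, beside 2.32% and 43.6%. Slc45a4, a proton-coupled carrier, was at 9.06 and 8.25 in the arrays labelled Ets1/2 null, against 9.89, 10.37 and 10.6 in wild type (-1.63 ± 0.3, limma adjusted p = 0.00451). The myo-inositol carrier Slc5a3 was at 12.21 and 11.77 against 13.19, 12.85 and 12.73, a fall of 0.94 (-0.94 ± 0.26, limma adjusted p = 0.0263) called in both probe sets. Slc50a1 and Slc37a3 were not called. Of 16 carboxylate and organic ion carriers 2 rose and 2 fell (12.5% each), near the shares of all genes. As deposited 1 rose and 9 fell, beside 2.32% and 43.6%. Slc22a5, the OCTN2 carrier that brings in carnitine, was at 9.53 and 9.98 against 8.29, 7.95 and 8.55 in wild type, and its rise of 1.49 ± 0.22 (limma adjusted p = 0.00181) was called in all 11 leave-one-out fits and on the deposited values. Slc22a17 overlapped wild type (0.54 ± 0.22, not called).

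The lipid and choline class had 1 rise (12.5%) and no fall among 8 genes. The vitamin, haem and urea class had 1 of each among 9 (11.1%), beside 16.4% and 12% of all genes. These classes had no rise and 4 and 3 falls as deposited, beside 2.32% and 43.6%. Slc44a2, a choline carrier-like protein, was at 13.36 and 12.25 in the arrays labelled Ets1/2 null, against 11.05, 12.05 and 10.7 in wild type (1.54 ± 0.49, limma adjusted p = 0.0444), and 1 of its 3 probe sets was called. Its relative Slc44a1 was at 11.24 and 10.6 against 10.06, 10.01 and 10.41 and was not called (0.76 ± 0.27). Slc27a1, a fatty acid carrier, and Slc10a3 overlapped wild type, at -0.48 ± 0.33 and -0.31 ± 0.25. Slc23a2, the SVCT2 carrier of ascorbate, was at 10.17 and 11.59 against 9.34, 9.31 and 9.95, a rise of 1.35 ± 0.38 (limma adjusted p = 0.0271). Slc48a1, the haem carrier HRG1, was at 9.44 and 10.58 against 11.52, 10.86 and 10.87, a fall of 1.07 (-1.07 ± 0.33, limma adjusted p = 0.039). The folate carrier Slc19a1 gave 0.1 ± 0.28. The thiamine carrier Slc19a2 gave 0.42 ± 0.6 on its brightest probe set and -4.52 ± 0.66 on its second, and the urea carrier Slc14a1 spread over 8.07 and 10.9 in the arrays labelled Ets1/2 null alone.

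Compared with Ets1 null cells, where only Cre and Ets2 loss differed by label, 37 solute carriers rose and 26 fell in Ets1/2 null, beside 17.4% and 11.3% of all genes, and on the deposited values 5 rose and 86 fell, beside 1.72% and 42.8%. The largest fall was again Slc29a1, at -3.75 ± 0.45 (limma adjusted p = 0.00084), followed among named genes by Slc9a8, a sodium proton exchanger of the Golgi, which was at 6.5 and 6.74 in the arrays labelled Ets1/2 null and at 9.42, 8.97 and 9.48 in Ets1 null (-2.67 ± 0.19, limma adjusted p = 0.000117). The second probe set of Slc9a8, a dimmer one, read -0.14 ± 0.21. Slc35a4, Slc25a10 and Slc25a1 fell by 1.89, 1.88 and 1.78. Slc41a1 led the named rises at 1.89 ± 0.39 (limma adjusted p = 0.00833), and its relative Slc41a2 was at 9.83 and 9.49 against 8.3, 7.86 and 7.97 in Ets1 null (1.62 ± 0.46). Slc41a2 was not called against wild type, whose arrays reached 9.65. Slc35a2, Slc22a5 and Slc25a36 rose by 1.58, 1.47 and 1.45. Of the 37 rises, 12 had the opposite sign on the deposited values.

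Against Ets2 null cells, which share the Cre virus, 31 rose and 33 fell, beside 17.1% and 13.2% of all genes. As deposited, 4 rose and 94 fell, beside 3% and 43.3%. Slc7a2, the CAT2 carrier that brings in arginine, was at 10.96 and 11.92 in the arrays labelled Ets1/2 null, against 6.28, 6.21 and 8.78 in Ets2 null. The rise of 4.35 ± 0.97 (limma adjusted p = 0.0103), 20.3-fold, was the largest of the family and was called in all 3 of its probe sets. Wild-type arrays spanned 7.26 to 10.48 for this gene, and neither null differed from wild type past the test. Slc12a2 was at 12.26 and 12.15 against 9.93, 10.29 and 9.74 in Ets2 null (2.22 ± 0.45, limma adjusted p = 0.00694), and Slc38a1 and Slc23a2 rose by 2.02 and 1.57. Slc30a4 was at 12.69 and 12.72 against 11.7, 11.13 and 10.93 in Ets2 null (1.45 ± 0.24, limma adjusted p = 0.00293). Slc38a2 and Slc3a2, described above among the genes with well known roles, rose by 0.9 ± 0.26 and 1.04 ± 0.29. Besides Slc29a1 (-3.7 ± 0.45), the named falls were Slc8a3, Slc25a10, Slc48a1 and Slc27a1. Slc8a3, a sodium calcium exchanger, was at 6.63 and 8.03 against 10.42, 9.16 and 8.65 in Ets2 null (-2.08 ± 0.53, limma adjusted p = 0.0178). Eif2s3y, a Y-linked gene, marked every Ets2 null array and wild-type replicate 1 as male and neither array labelled Ets1/2 null. With a term for male arrays 5 solute carriers were called in place of 64. Over all genes 261 were called in place of 3336. Wild type alone held arrays of both sexes, so that term rests on wild-type replicate 1 and is imprecise. Sex and the Ets2 null label cannot be told apart in this comparison.

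The single nulls gave almost no calls. Between Ets1 null and wild type no solute carrier passed limma's test at an adjusted p under 0.05, beside 0% higher and 0.00908% lower over all genes. An unadjusted limma p under 0.05 was found for 15 of the 190, beside 959 of all 11015 genes, a similar share. Differences ran between -1.44 and 1.54. Between Ets2 null and wild type 1 solute carrier rose and none fell, beside 0.236% and 0.2% of all genes. Here 37 of the 190 had an unadjusted limma p under 0.05, beside 2082 of all 11015 genes, again a similar share. The gene called was Slc16a4, an orphan of the monocarboxylate family named here because it is the only call. It was dim, at 7.62, 8.26 and 8.2 in Ets2 null against 5.56, 5.66 and 6.25 in wild type (2.21 ± 0.37, limma adjusted p = 0.0484), and was not called on the deposited values (limma adjusted p = 0.0542) or in 9 of 11 leave-one-out fits. Slc11a2 lay below every wild-type array in Ets2 null, at 8.04, 7.97 and 8.2 against 9.61, 9.68 and 8.84, without passing the test (-1.31 ± 0.24, limma adjusted p = 0.0574). Slc8a3 was at 10.42, 9.16 and 8.65 in Ets2 null against 6.62, 6.9 and 7.35 in wild type, above every array but likewise short of the threshold (2.45 ± 0.47, limma adjusted p = 0.0587). The single nulls and the cells labelled Ets1/2 null were compared with the same 3 wild-type arrays.

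Whether Ets2 loss acted differently with and without Ets1 is the question of the interaction, taken by the labels. Ets1 and Ets2 signals in the arrays labelled Ets1/2 null go against the labels, and the Ets2 signal of Ets2 null overlapped that of wild type. The interaction is the Ets1/2 null minus Ets1 null difference less the Ets2 null minus wild type difference. It was called for 34 solute carriers, 17 positive and 17 negative, beside 7.54% and 6.94% of all genes. On the deposited values the calls were 1 positive and 67 negative, beside 1.51% and 30.1%. Slc29a1 had the largest term, -4.06 ± 0.61 (limma adjusted p = 0.00449): the log2 difference was -3.75 for the arrays labelled Ets1/2 null minus Ets1 null and 0.31 for Ets2 null minus wild type. Slc9a8 (-3.13 ± 0.26), Slc27a1 (-2.35 ± 0.45), Slc25a10 (-2.28 ± 0.3) and Slc48a1 (-1.99 ± 0.44) followed. For Slc27a1 the Ets2 null arrays, at 9.67, 9.36 and 9.65, were the highest of any group, whereas the arrays labelled Ets1/2 null, at 7.5 and 8.33, were below all Ets1 null arrays. Among genes named by the rule, positive terms were led by Slc41a1 (1.82 ± 0.53), Slc44a1 (1.44 ± 0.36), Slc30a4 (1.41 ± 0.32), Slc35a3 (1.33 ± 0.34) and Slc25a20 (1.05 ± 0.3), the carnitine acylcarnitine carrier of mitochondria, none of which was called in every leave-one-out fit. Outside that rule, Slc25a34, Slc38a9 and Slc6a7 were chosen after their values were seen. Slc25a34 had a term of 2.11. Slc38a9 (1.59) and Slc6a7 (0.86) were called in all 11 leave-one-out fits, and Slc38a9 was the positive call on the deposited values. These genes were dim, with every group mean below the median of all genes. For Slc38a9 1 of 5 probe sets was called, and their mean read 0.59 (limma adjusted p = 0.0593). Slc35a3, which takes UDP-N-acetylglucosamine into the Golgi, had probe sets called in both directions, and their mean gave a term of 0.03 (limma adjusted p = 0.969). Nucleoside and nucleotide sugar carriers held 7 of the negative and 2 of the positive calls among 24 genes, and mitochondrial carriers 6 of the positive and 4 of the negative calls among 36. With a term for male arrays, which rests on wild-type replicate 1, 13 solute carriers were called in place of 34. Over all genes that fit called 622 in place of 1594. Without Ets1 null replicate 3, 19 solute carriers were called, beside 922 of all genes. Across the 190 genes the differences of the arrays labelled Ets1/2 null minus Ets1 null and of Ets2 null minus wild type, which share no arrays, had r = 0.14 with the same sign in 90 genes. The arrays labelled Ets1/2 null minus Ets2 null and Ets1 null minus wild type gave r = 0.09 and 93 genes; genes are not independent replicates.

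**Figure D4:**
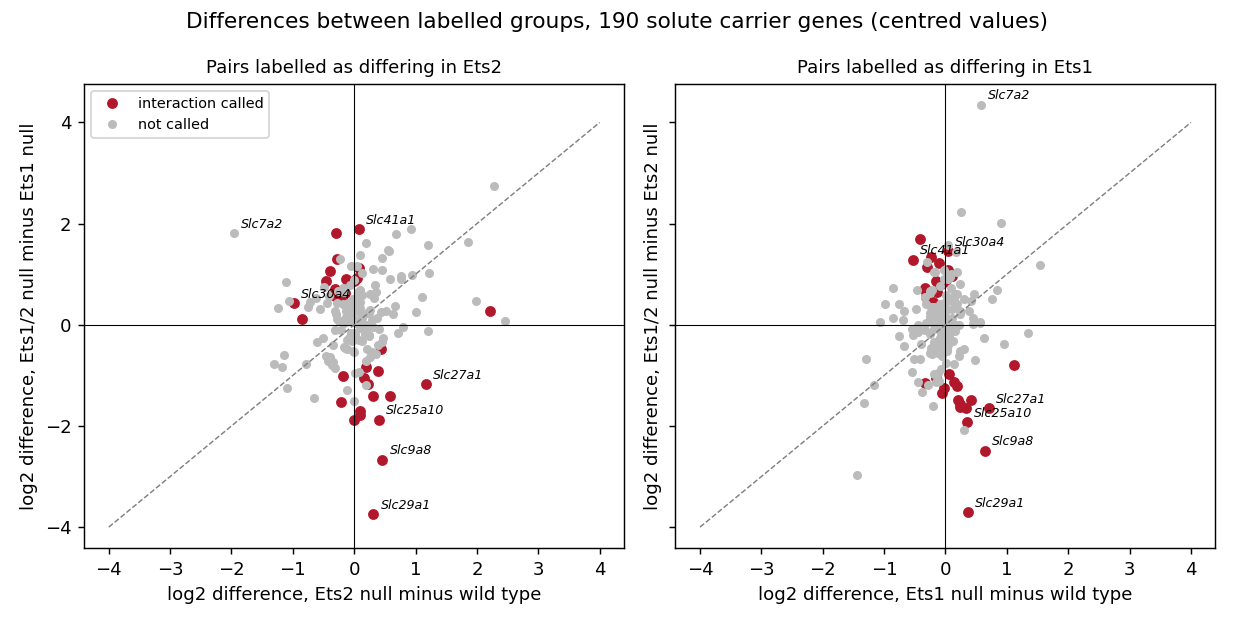
Left, centred log2 difference of the arrays labelled Ets1/2 null minus Ets1 null (y axis) against Ets2 null minus wild type (x axis). Right, Ets1/2 null minus Ets2 null against Ets1 null minus wild type. Each point is 1 of 190 solute carriers, red where the interaction was called, and the dashed line marks equal differences. Slc29a1 and Slc9a8 lie far below the line near an x value of 0, and the points show little common slope.

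For 77 solute carriers a second probe set allowed a check of the same RNA. Between Ets2 null and wild type the differences of the brightest and second-brightest probe sets had r = 0.8 across genes and the same sign in 61 of 77, and between Ets1 null and wild type r = 0.85 and 59. Between Ets1/2 null and wild type r was 0.39 and 47 had the same sign. Of the 30 rises in that comparison, 13 genes had several probe sets, 5 with another called higher, while Slc35a3, Slc38a10 and Slc39a6 had another called lower. Among the 32 falls, 17 had several probe sets, 8 had another called lower, and none had a probe set called higher. Slc39a6, a zinc importer, had probe sets called in opposite directions: its brightest probe set rose by 0.49 ± 0.15, which read -0.23 on the deposited values, and its second fell by 2.09 (-2.09 ± 0.25, limma adjusted p = 0.000437).

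**Figure D5:**
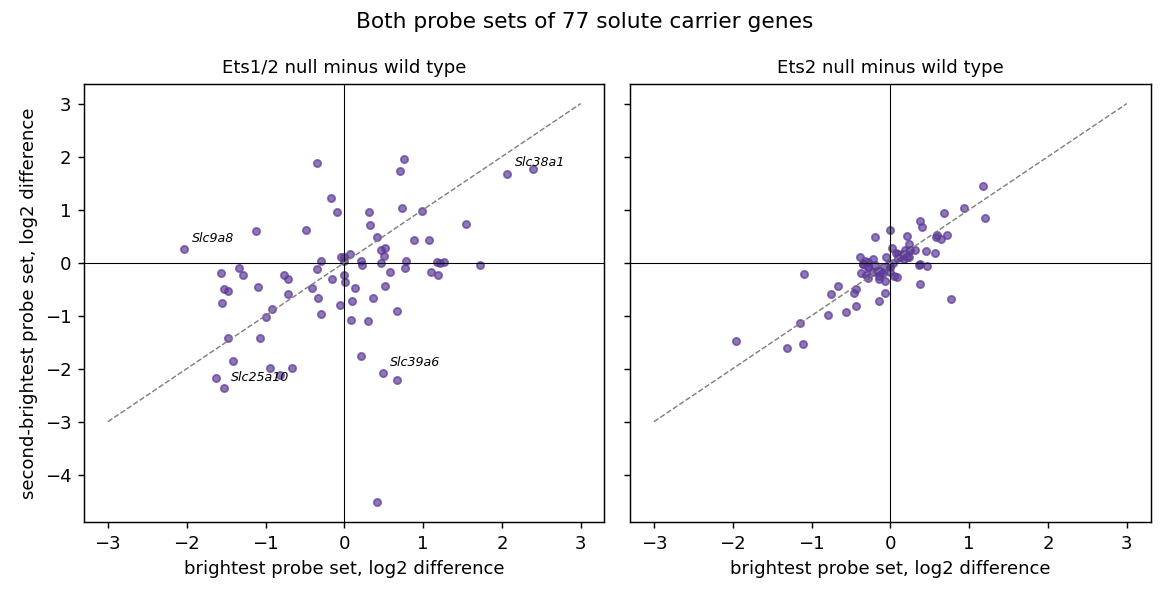
Log2 difference of the second-brightest probe set (y axis) against the brightest (x axis) for 77 solute carriers with several probe sets, Ets1/2 null minus wild type on the left and Ets2 null minus wild type on the right; the dashed line marks equal differences. Points follow the line on the right (r = 0.8) and scatter on the left (r = 0.39), where Slc39a6 and Slc9a8 are among the genes whose probe sets differ.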

How the data were processed

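RNA was measured on Affymetrix mouse arrays. The deposited values are log2, 1 per probe set, and RMA made them per the submitters' processing notes. Its version, a filter on probe sets or a joint normalisation is not stated in the labels. The table has 20523 probe sets, of which 18824 carry 1 platform symbol, 549 several and 1150 none. Each of 11015 genes was read from its brightest probe set. Array medians over genes were made equal. limma 3.58.1 in R 4.3.3 fitted group means over 11 arrays (lmFit and eBayes, two-sided, 7 residual degrees of freedom) across all genes, with Benjamini-Hochberg adjustment and a threshold of 0.05. Errors are limma's standard errors. pandas 2.3.3 and matplotlib 3.10.9 made tables and plots, and the scripts were tested on simulated data. RefSeq (GRCm38.p6) entries matched all 190 genes by gene identifier.

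Of 12 columns, the Ets1/2 null column that averages the other 2 was left out. Titles and genotypes set the groups; in free text the single nulls are described as wild type for the gene. Replicate numbers did not pair arrays: deviations of same-numbered arrays correlated between -0.325 and 0.104. The genes and lists were chosen with earlier results of these data known. The text names at most 10 rises and 10 falls against wild type, and 5 and 5 in each other comparison, by size among called genes above the median of all genes in the brighter group and without overlap, the 3 brightest members of each substrate class, and members with well known roles; genes outside this rule are marked. Other scalings, probe set choices, array sets, weights, a male term and leaving out each array were tried. The number of arrays limits the precision.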

Additional observations from a re-analysis of the deposited data

Results flagged for a closer look

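The interaction sets the arrays labelled Ets1/2 null minus Ets1 null against Ets2 null minus wild type. The Ets1 and Ets2 signals in the arrays labelled Ets1/2 null go against that label, and the Ets2 signal of Ets2 null overlapped that of wild type. The interaction was called for 17 positive and 17 negative of the 190 solute carriers, 34 in all (limma adjusted p under 0.05), beside 7.54% and 6.94% of all genes. On the deposited values it was called for 1 positive and 67 negative, beside 1.51% and 30.1% of all genes. Among the genes named in the report, the terms on the log2 scale were negative for Slc29a1 (-4.06), Slc9a8 (-3.13), Slc27a1 (-2.35), Slc25a10 (-2.28), Slc48a1 (-1.99), Slc35a4 (-1.88), Slc25a1 (-1.86), Slc12a7 (-1.81) and Slc35b4 (-1.31). They were positive for Slc41a1 (1.82), Slc44a1 (1.44), Slc30a4 (1.41), Slc35a3 (1.33), Slc25a20 (1.05) and Slc39a6 (0.87). With the mean of its 3 probe sets the term of Slc35b4 read -0.27 and was not called. The mean of probe sets gave 0.03 for Slc35a3 and -0.49 for Slc39a6, neither of them called. Slc35a3 and Slc39a6 each had a probe set called in the other direction. Of the 17 negative calls 12 were made in every leave-one-out fit, and of the 17 positive calls 2 were, Slc38a9 and Slc6a7, which are not among the genes listed. Both were dim, below the median of all genes in every group mean. With the mean of its 5 probe sets Slc38a9 read 0.59 and was not called.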

How the results depend on the processing

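Falls between Ets1/2 null and wild type were called on centred and deposited values alike, as were all 1317 falls over all genes. Lower deposited medians of the arrays labelled Ets1/2 null enlarge every fall, so this is no separate check. Most rises depend on the centring, and some directions depend on the probe set. Calls rest on 2 arrays labelled Ets1/2 null, and dim genes carry little signal over background. The stability of 102 single-gene results was followed: called results of named genes and the lowest-p members of each single-null comparison, without the counts of calls. Of 1122 leave-one-out values 920 kept direction and side of the threshold and none changed direction. Under the other settings 837 of 1100 did and 28 changed direction. Of these 28, 16 came with the second-brightest probe set, 10 with the mean of probe sets and 2 with deposited values. Genes with 1 probe set kept that probe set in the first 2 of these settings, and only 77 of the 190 genes had several. The setting with all 12 columns adds back the averaged column. The share that kept direction therefore overstates stability. The causes were not tested. Between Ets1/2 null and wild type (62 called), leaving out 1 array gave 35 to 64 calls (35 without Ets1/2 null replicate 2, 39 without wild-type replicate 2, 41 without wild-type replicate 1), only the arrays compared 25 and a male term 41. The male term rests on wild-type replicate 1, so here it repeats the fit without that array and is no separate check. Against Ets1 null (63), leaving out 1 array gave 35 to 72 (35 without Ets1/2 null replicate 1, 37 without Ets1 null replicate 2). Against Ets2 null (64), it gave 46 to 70, the deposited values 98, only the arrays compared 36 and a male term 5. The interaction (34) gave 19 to 37 with 1 array left out (19 without Ets1 null replicate 3, 20 without Ets1 null replicate 2, 21 without wild-type replicate 1, 22 without Ets2 null replicate 2), 68 on the deposited values, 13 with a male term, 55 with all 12 columns and 19 with the replicate block. Ets2 null against wild type (1) gave 0 on deposited values, after quantile normalisation, with only the arrays compared, with the replicate block, with a male term and without dim genes. It gave 2 with the mean of probe sets, 9 with all 12 columns, 27 with array weights, 3 with the second-brightest probe set, 2 without both low-weight arrays (wild-type and Ets2 null replicate 3, weights 0.32 and 0.3), and 0 to 2 with 1 array left out. Ets1 null against wild type (0) gave 1 with array weights. After quantile normalisation the split of rises and falls was 24 and 30 against 37 and 26 relative to Ets1 null, 21 and 34 against 31 and 33 relative to Ets2 null, and 7 and 18 against 17 and 17 in the interaction. Calls over all genes moved as well. A male term gave 261 of all genes in place of 3336 against Ets2 null, and 622 in place of 1594 in the interaction. With array weights Ets2 null against wild type gave 1085 of all genes in place of 48. Leaving out both low-weight arrays and the second-brightest probe set were chosen after seeing the data.

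Directions of called values of genes named by the rule changed as follows. With the second-brightest probe set, Ets1/2 null minus wild type read -0.24 for Slc25a36, -0.04 for Slc35a2, -0.1 for Slc35a3, 0.6 for Slc35e1, -0.01 for Slc38a10, -2.09 for Slc39a6 and 0.25 for Slc9a8. Relative to Ets1 null it read 1.6 for Slc1a4, -0.29 for Slc35a2, 0.7 for Slc35e1, -0.3 for Slc38a10 and -2.23 for Slc39a6. Relative to Ets2 null it read 0.32 for Slc35e1, -1.85 for Slc39a6 and 0.31 for Slc9a8, and the interaction of Slc39a6 was -1.99. With the mean of probe sets, Slc35a3, Slc38a10 and Slc39a6 read -0.41, -0.07 and -0.74 relative to wild type. Slc1a4, Slc35a3, Slc38a10 and Slc39a6 read 0.46, -0.36, -0.43 and -0.77 relative to Ets1 null, and Slc35a3 and Slc39a6 -0.02 and -0.46 relative to Ets2 null. The interaction of Slc39a6 was -0.49. On deposited values Slc39a6 read -0.23 relative to wild type and -0.2 relative to Ets1 null. Slc30a9, outside the rule and named for its promoter, read -0.16, -0.18 and -0.27 there relative to wild type, Ets1 null and Ets2 null.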

Other observations

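Transporters outside the Slc symbols, taken from a list of 64 of which 47 were on the table, gave 7 rises (14.9%) and 5 falls (10.6%) between Ets1/2 null and wild type, beside 16.4% and 12% of all genes. Atp7a, the copper-transporting ATPase, was at 10.73 and 11.46 in the arrays labelled Ets1/2 null, against 9.47, 9.49 and 9.26 in wild type (1.69 ± 0.26, limma adjusted p = 0.00229). Abca3, a lipid exporter of lamellar bodies in lung, was at 10.93 and 11.47 against 9.47, 9.58 and 9.55 in wild type (1.67 ± 0.25, limma adjusted p = 0.00223). Xpr1, the phosphate exporter, was at 10.87 and 11.4 against 9.84, 10.01 and 9.65 in wild type (1.3 ± 0.22, limma adjusted p = 0.00373). These 3 rises were also called on the deposited values.

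Spns1, a lysosomal carrier of lysophospholipids, was at 7.51 and 7.88 in the arrays labelled Ets1/2 null, against 9.57, 9.45 and 9.28 in wild type (-1.74 ± 0.16, limma adjusted p = 0.000292), with the single-null arrays between 9.28 and 9.67. Abcc5, an exporter of cyclic nucleotides, was at 9.29 and 9.04 against 10.09, 10.34 and 9.86 in wild type (-0.93 ± 0.23, limma adjusted p = 0.0175). The drug exporters Abcb1a and Abcg2 spread widely within groups and were not called.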
